A study of Bos taurus and Sus scrofa with 6 samples.

Results

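Immediate early genes are the genes a cell transcribes first after a stimulus, from transcription factors and kinases that are already present. The 8 genes followed here were chosen by name, as FOS, FOSB, JUN, JUNB, EGR1, ATF3, IER2 and DUSP1, and looked up by symbol in the gene table of each species. All 8 were listed among the 19994 genes of cattle, and 7 among the 22694 genes of pig, where no row carried the symbol JUN. The 3 cattle were Holsteins 4.5 months old and the 3 pigs were of mixed breed and 3 months old, and their testes, all prepubertal, were obtained by castration. Each testis was dissociated with trypsin and then with collagenase and DNase I, and about 8000 live cells per animal entered the droplet assay, giving 1 library per animal. In each species a testis number is repeated on 2 of the libraries, next to different animal tags, and these were counted as separate animals because n = 3 is given for each species. Every library was made after enzymatic digestion, so that the levels below are levels in dissociated cells and no level before digestion was measured.

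The proteins of these genes have known roles. FOS and FOSB (Fos family) pair with JUN and JUNB (Jun family) to form AP-1, a transcription factor that binds a short palindrome in many promoters and enhancers. EGR1 is a zinc finger transcription factor, ATF3 a basic leucine zipper factor of the ATF/CREB family known from stress responses, and IER2 a small nuclear protein. DUSP1 is a phosphatase that removes phosphate from MAP kinases and so acts as feedback on the signal that induces the group. Growth factor receptors, cytokine receptors and cell stress reach these genes through MAP kinases, which act on factors bound at serum response elements and cyclic AMP response elements. In the testis, gonadotropins and paracrine growth factors are known to induce FOS and EGR1 in somatic cells, and enzymatic dissociation of many tissues is known to induce the group as well.

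Cells were called, clustered and named as described under the processing. The libraries kept 17482 cattle cells and 9206 pig cells (2236 to 8138 per library; in cattle 2 the 8751 barcodes called outnumber the about 8000 cells loaded, so that not each of them can be 1 loaded cell), with median depths of 789 to 4461 UMIs (unique molecular identifiers, 1 per captured RNA molecule) in cattle and 890 to 5870 in pig. Mitochondrial genes took 1.86% to 5.47% of the UMIs in cattle and 1.6% to 2.57% in pig. Any 2 libraries had 9 to 61 cell barcodes in common, where independent draws from the barcode list would give 9.59 to 65.1. Named clusters carried 3 to 10 markers of their cell type, and 7 cell types were named: Sertoli-like, germ-like, Leydig-like, myoid-like, endothelial-like, lymphocyte-like and macrophage-like cells. The Sertoli-like cells of cattle 1, 2 and 3 lay mainly in different clusters (473 of 507, 2218 of 2367 and 1198 of 1325 cells). The largest Sertoli-like clusters of pig 1, 2 and 3 also differed (826 of 1169, 1122 of 2344 and 188 of 211 cells). In pig 2 a second Sertoli-like cluster held 1054 cells. All 519 cattle germ-like cells lay in 1 cluster. Levels are given as CPM, the UMIs of a gene among all UMIs of the summed cells of 1 cell type in 1 animal, scaled to a total of 1000000. Sums of fewer than 20 cells were left out, which removed the endothelial-like, lymphocyte-like and myoid-like cells of pig 1 (6, 19 and 17 cells). Because this assay counts molecules at their 3′ ends and the yield differs between genes, levels were compared within a gene and not between genes.

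The identifiers and positions of the genes come from the files and from the RefSeq annotation of the pig genome. In pig (Sscrofa11.1) FOS (ENSSSCG00000002383) lies at chr7:98449508-98451971 on the plus strand, FOSB (ENSSSCG00000031616) at chr6:51836780-51844531 (plus), EGR1 (ENSSSCG00000014336) at chr2:140440829-140445302 (plus) and DUSP1 (ENSSSCG00000016991) at chr16:51457924-51461095 (plus). JUNB (ENSSSCG00000013735) lies at chr2:66214086-66219435, IER2 (ENSSSCG00000013753) at chr2:65909638-65912491 and ATF3 (ENSSSCG00000015595) at chr9:130772259-130829678, all on the minus strand. The cattle identifiers are ENSBTAG00000004322 (FOS), ENSBTAG00000008182 (FOSB), ENSBTAG00000004037 (JUN), ENSBTAG00000012046 (JUNB), ENSBTAG00000010069 (EGR1), ENSBTAG00000008545 (ATF3), ENSBTAG00000016354 (IER2) and ENSBTAG00000013863 (DUSP1), on ARS-UCD1.2, for which coordinates were not used here.

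The 250 bases before the annotated start of pig FOS, EGR1 and DUSP1 are shown because these 3 genes were higher together in pig endothelial-like cells and lower together in germ-like cells. They are read 5′ to 3′ from the pig RefSeq genome (Sscrofa11.1), on the plus strand, at chr7:98449258-98449507 (FOS), chr2:140440579-140440828 (EGR1) and chr16:51457674-51457923 (DUSP1), and all 3 windows lie upstream of the annotated first exon. Whether transcription starts at the annotated start was not tested. Capitals mark TGACG, the core of the cyclic AMP response element, on either strand, and TATAAA, the core of the TATA box.
FOS: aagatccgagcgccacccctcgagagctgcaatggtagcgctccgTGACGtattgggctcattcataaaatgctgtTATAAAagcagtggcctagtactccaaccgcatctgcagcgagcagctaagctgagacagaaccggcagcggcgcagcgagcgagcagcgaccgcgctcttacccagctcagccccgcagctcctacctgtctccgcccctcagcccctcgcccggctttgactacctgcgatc
EGR1: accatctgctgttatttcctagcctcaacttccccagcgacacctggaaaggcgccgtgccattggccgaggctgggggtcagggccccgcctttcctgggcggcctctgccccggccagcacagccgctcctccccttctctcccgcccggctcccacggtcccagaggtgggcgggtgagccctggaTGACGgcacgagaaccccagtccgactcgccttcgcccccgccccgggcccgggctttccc
DUSP1: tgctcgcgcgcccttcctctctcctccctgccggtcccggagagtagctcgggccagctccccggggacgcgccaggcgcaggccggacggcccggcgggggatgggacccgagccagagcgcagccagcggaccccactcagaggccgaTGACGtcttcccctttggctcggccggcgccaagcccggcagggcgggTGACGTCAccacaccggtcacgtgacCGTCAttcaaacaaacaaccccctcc

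The FOS window held 1 TGACG and 1 TATAAA, the EGR1 window 1 TGACG and the DUSP1 window 4 TGACG matches on both strands, of which 2 overlap as the palindrome TGACGTCA. Over the windows of all 8 genes in the pig annotation, JUN included, TGACG was found in 4, and it was found in 19.6% of the 19556 annotated promoters of the same length. TATAAA was found in 2 of the 8 windows (FOS and FOSB) against 9.77% of promoters. It ended 168 bases before the annotated start in FOS and, at the nearest, 150 bases before it in FOSB. Whether either serves as a TATA box was not tested. The serum response element core, known as the CArG box, was found in 1 of the 8 (IER2) against 1.31%. These are letter matches in 1 window per gene and say nothing about binding.

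FOS was highest in macrophage-like and Sertoli-like cells of cattle and lowest in germ-like cells. In cattle 1, 2 and 3 its level was 1089.7, 1069 and 1749.5 CPM in macrophage-like cells, 1579, 739.7 and 756 in Sertoli-like cells, 515, 244 and 404 in myoid-like cells and 118, 319 and 517 in endothelial-like cells. It was 190.0, 54.2 and 112 CPM in lymphocyte-like cells, 201, 76.2 and 88.4 in Leydig-like cells and 153, 29.8 and 36.2 in germ-like cells. Of the 6 neighbouring pairs in the order of the means, only Sertoli-like and myoid-like cells had ranges that did not overlap. Germ-like cells of every animal were below all of that animal's other cell types except the endothelial-like cells of cattle 1, a sum of 24 cells and 2 FOS UMIs. Pig FOS reached 5264 and 3661 CPM in endothelial-like cells of pig 2 and 3, 3388 and 2517 in myoid-like cells of the same 2 animals and 1511, 3027 and 2680.3 in Sertoli-like cells of pig 1, 2 and 3. Macrophage-like cells held 1338, 3285 and 1280.5 CPM, lymphocyte-like cells of pig 2 and 3 2552 and 611, Leydig-like cells 366, 719.9 and 621 and germ-like cells 66.5, 261 and 93.5. Pig 2 was the highest pig in all 7 cell types, and endothelial-like and myoid-like cells did not overlap, nor did Leydig-like and germ-like cells.

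FOSB, the other Fos family member, was measured mainly in cattle. Its level in cattle 1, 2 and 3 was 436, 99 and 216 CPM in Sertoli-like cells and 99.1, 35.0 and 98.2 in macrophage-like cells, and it was at most 89.1 CPM in any animal's endothelial-like, Leydig-like, lymphocyte-like, myoid-like or germ-like cells. Germ-like cells held 3.41, 6.11 and 6.97 CPM. All 6 neighbouring pairs in the order of cell types overlapped. In pig only 2, 47 and 7 FOSB UMIs were counted in all cells of pig 1, 2 and 3, and no cell type of any pig exceeded 4.96 CPM.

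JUN and JUNB, the Jun family, were also highest in Sertoli-like cells of cattle by the mean and lowest in germ-like cells. JUN stood at 1508, 795 and 929 CPM in Sertoli-like cells of cattle 1, 2 and 3, at 632, 577 and 1038 in macrophage-like cells, at 412, 413 and 717 in endothelial-like cells and at 542, 396 and 556 in myoid-like cells. Lymphocyte-like cells held 258, 196 and 226 CPM, Leydig-like cells 218, 74.0 and 90.3 and germ-like cells 44.3, 34.4 and 44.2. Myoid-like cells lay above lymphocyte-like cells and Leydig-like cells above germ-like cells without overlap, and the other 4 neighbouring pairs overlapped. JUNB was 1461, 548 and 486 CPM in Sertoli-like cells, 634, 498 and 585 in myoid-like cells, 508, 444 and 524 in macrophage-like cells, 160.5, 62.5 and 107 in lymphocyte-like cells, 148, 40.3 and 48.1 in Leydig-like cells and 51.2, 30.6 and 27.9 in germ-like cells. The ranges of JUNB in the first 3 of these cell types overlapped, and all 3 lay above endothelial-like cells. The endothelial-like sum of cattle 1 held no JUNB UMI, which at its size allows up to 217 CPM (exact 95% Poisson limit, counting error only), and the other 2 animals held 225 and 316 CPM. Pig JUNB was counted at 15, 105 and 73 UMIs in all cells of pig 1, 2 and 3, or 3.44, 5.51 and 3.52 CPM.

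EGR1 separated Sertoli-like cells from the other cell types of cattle. It was 436, 248 and 255 CPM in Sertoli-like cells of cattle 1, 2 and 3, 165, 107 and 144 in myoid-like cells and 58.9, 21.7 and 80.2 in endothelial-like cells, with no overlap between these neighbours in the order. Macrophage-like cells, among the highest for FOS, held 37.1, 44.4 and 64.1 CPM of EGR1, lymphocyte-like cells 38.0, 21.4 and 29.4, Leydig-like cells 71.8, 31.6 and 21.6, and germ-like cells 47.7, 15.3 and 17.7. In pig, EGR1 was 1395 and 1324 CPM in endothelial-like cells of pig 2 and 3, 1500.0, 1073 and 987 in Sertoli-like cells of pig 1, 2 and 3 and 1397 and 968 in myoid-like cells of pig 2 and 3, and these 3 cell types overlapped. Pig macrophage-like cells held 320.4, 280.3 and 51.3 CPM, Leydig-like cells 324, 375 and 141 and germ-like cells 49.9, 84.8 and 21.2. Pig myoid-like cells were above the next cell type, lymphocyte-like cells (605 and 132 CPM in pig 2 and 3), without overlap.

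ATF3, the stress-linked factor, was counted at low levels in cattle. In cattle 1, 2 and 3 it was 12.4, 18.7 and 83.8 CPM in macrophage-like cells and 63.6, 11.5 and 16.5 in Sertoli-like cells, and at most 4.45 CPM in each other cell type. The macrophage-like values rest on 1 to 81 UMIs. In pig 1, 2 and 3 it was 173, 434 and 236 CPM in Sertoli-like cells, 160.2, 206 and 158 in macrophage-like cells, 31.9, 77.9 and 43.6 in Leydig-like cells and 12.7, 22.9 and 5.01 in germ-like cells. In pig 2 and 3, endothelial-like cells held 180.0 and 142 CPM, myoid-like cells 177 and 30.7 and lymphocyte-like cells 325 and 24.8. Leydig-like and germ-like cells were the only neighbours in the pig order without overlap. IER2 was 997, 250.4 and 269 CPM in Sertoli-like cells of cattle 1, 2 and 3, 296, 180.0 and 189.7 in lymphocyte-like cells, 198, 109.7 and 132 in macrophage-like cells, 177, 167 and 75.7 in endothelial-like cells, 136, 60.6 and 54.9 in myoid-like cells, 59.7, 20.7 and 21.1 in Leydig-like cells and 37.5, 22.9 and 10.7 in germ-like cells, and all 6 neighbouring pairs overlapped. In pig, 7, 29 and 40 IER2 UMIs were counted in all cells.

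DUSP1, the feedback phosphatase, was highest in macrophage-like and endothelial-like cells of both species. In cattle 1, 2 and 3 it was 198, 217 and 562 CPM in macrophage-like cells, 177, 275 and 263 in endothelial-like cells and 95.5, 26.5 and 48.9 in Sertoli-like cells, and it was 32.5, 36.3 and 56.8 in myoid-like, 36.5, 50.1 and 81.0 in Leydig-like, 8.45, 5.75 and 6.92 in lymphocyte-like and 6.82, 20.6 and 18.2 in germ-like cells. Endothelial-like and Sertoli-like cells, neighbours in this order, did not overlap, nor did myoid-like and germ-like cells. In pig it was 879 and 463 CPM in endothelial-like cells of pig 2 and 3, 329.8, 846 and 800.2 in macrophage-like cells of pig 1, 2 and 3, 148, 243 and 196 in Sertoli-like cells and 19.6, 38.8 and 35.3 in germ-like cells. Leydig-like cells held 26.2, 85.4 and 123 CPM, and in pig 2 and 3 myoid-like cells held 193 and 134 and lymphocyte-like cells 146 and 132. Macrophage-like cells lay above Sertoli-like cells, and lymphocyte-like above Leydig-like cells, without overlap.

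**Figure D1:**
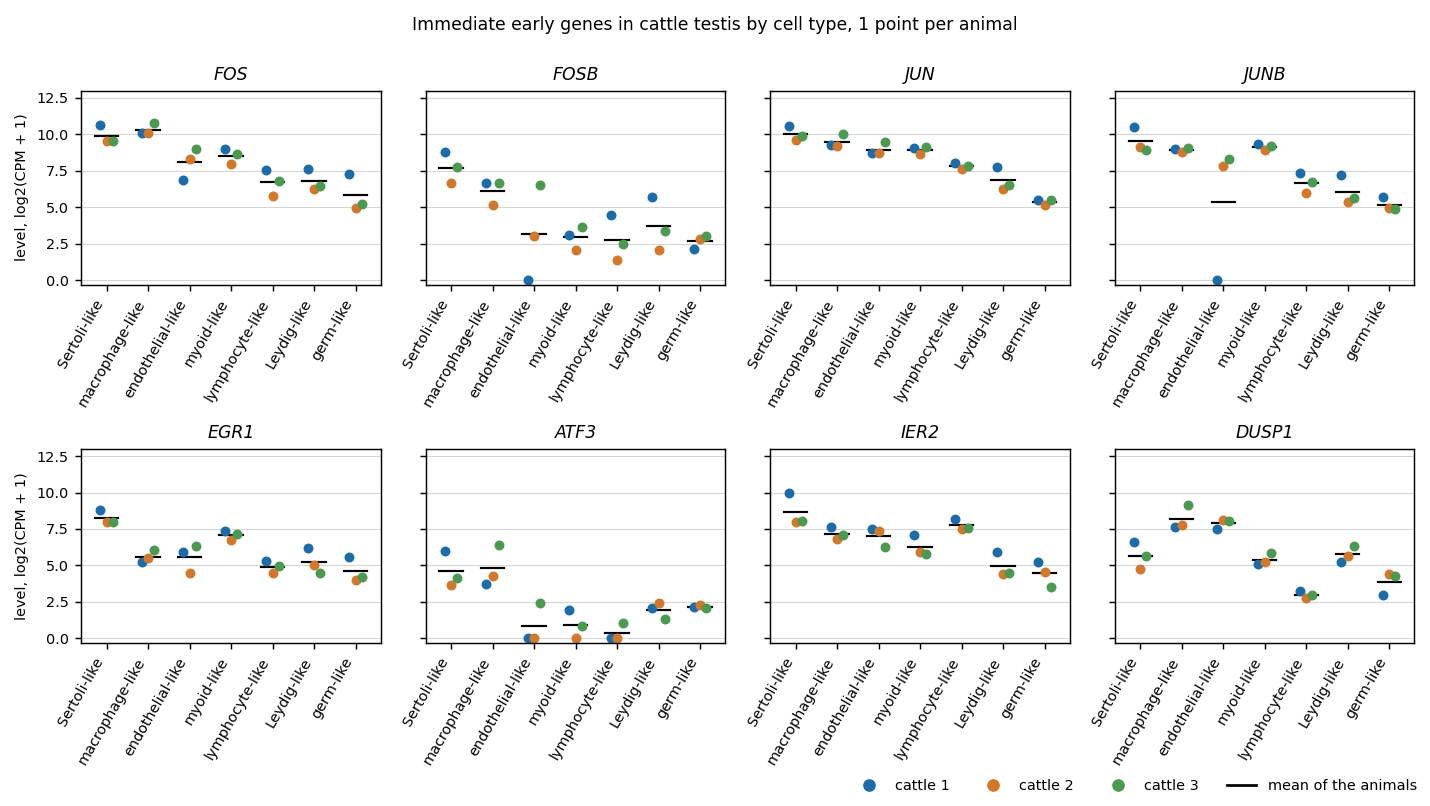
Level of each gene in cattle, as log2(CPM + 1) on the y axis, by cell type on the x axis, with 1 point per animal and a bar at the mean of the points. Sertoli-like and macrophage-like cells sit high for FOS, FOSB, JUN and JUNB, germ-like cells sit low, and the points at 0 for FOSB and JUNB are the endothelial-like sum of 24 cells in cattle 1.

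**Figure D2:**
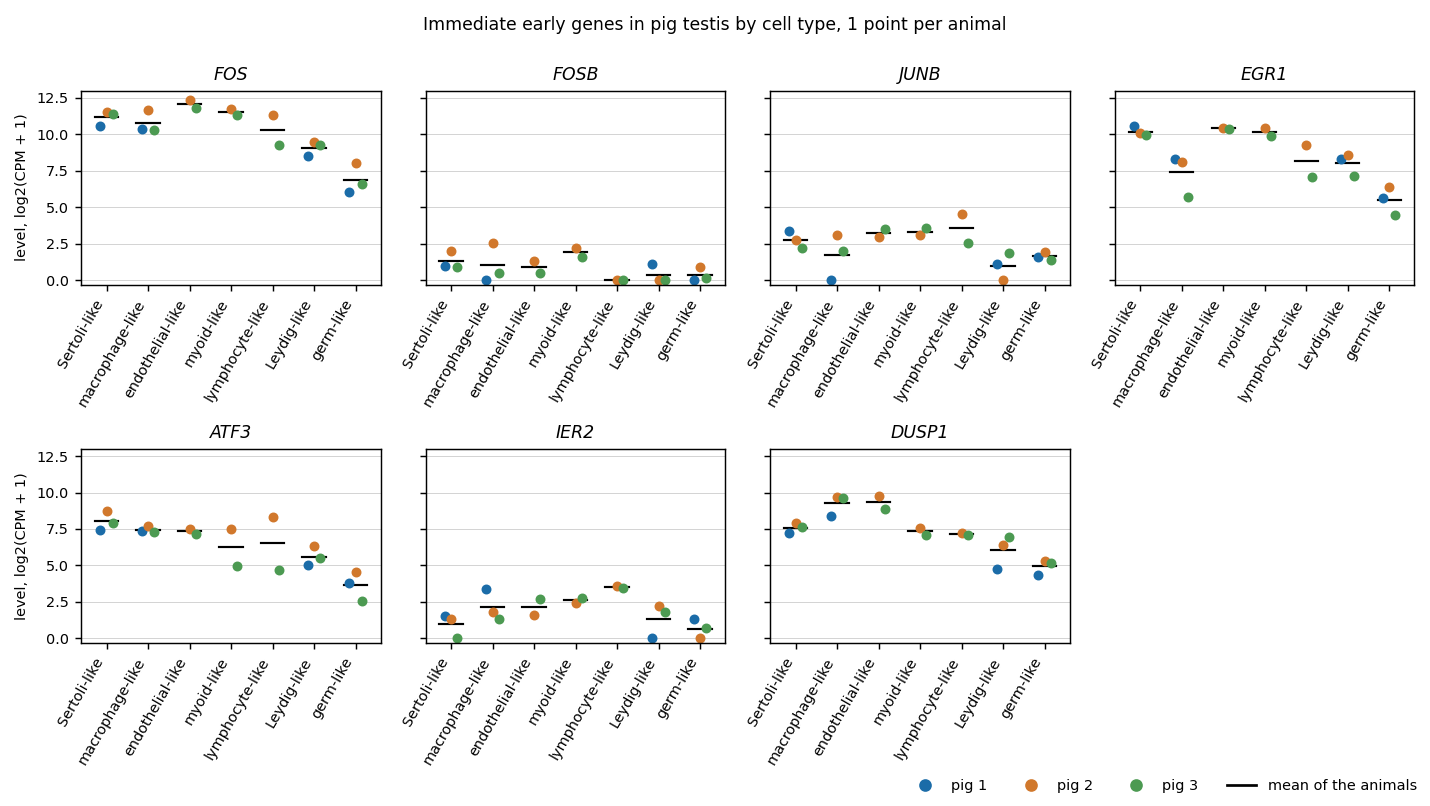
Level of each gene in pig, plotted in the same way on the same scale, for the 7 genes listed. FOS and EGR1 sit high in endothelial-like, myoid-like and Sertoli-like cells and low in germ-like cells, and FOSB, JUNB and IER2 stay near the bottom of the scale in each cell type.

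Whether a gene differs among cell types was tested on the summed counts with edgeR's quasi-likelihood F test, Benjamini-Hochberg adjusted over all genes at 0.05. This main fit took the sums of an animal as independent, and an alternative fit held the animal as a replicate block. In cattle 8 of 8 genes passed, from JUN (adjusted p = 2.1e-09) to ATF3 (adjusted p = 2.7e-07), where 72.7% of the 14184 genes tested did. In pig 6 of 7 passed, where 63.2% of 15175 genes did, with FOSB at an adjusted p of 0.071. These shares are high for genes of any kind, and passing this test does not set the group apart. Each cell type was then contrasted with the unweighted mean of the other cell types of its species. A gene that is high in 1 cell type lowers the contrasts of the others, so the contrasts of a gene are not independent of each other. In cattle 18 gene and cell type pairs were higher and 13 lower, against 15.7% and 7.12% of the pairs over all genes, and in pig 11 were higher and 8 lower, against 13.3% and 5.55%. Shares over all genes in the contrasts below come from the fit without the block. With it more genes were called in each cattle contrast, as in Leydig-like cells with 4144 in place of 2573 of 14184. Block calls of pig and of the interaction are given without such counts.

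Germ-like cells, the lineage that divides and enters meiosis, were lower for nearly all genes of the group. By the paper, the germ cells of the pigs included spermatocytes in early prophase besides spermatogonia. In cattle 7 of 8 genes were lower and none higher, against 17.4% lower and 36.2% higher over all genes. JUN fell by 4.23 on the log2 scale (standard error 0.409, adjusted p = 5.2e-09), JUNB by 3.86, IER2 by 3.54, FOS by 3.43, FOSB by 3.06, DUSP1 by 2.75 and EGR1 by 2.54. ATF3, at 1 to 12 UMIs in these sums, had a log2 fold change of -1.05 (adjusted p = 0.28). In pig 6 of 7 genes were lower and none higher, against 17.5% and 32.7% over all genes. FOS fell by 3.98 (standard error 0.448, adjusted p = 1.2e-07), EGR1 by 3.66, ATF3 by 3.52, DUSP1 by 3.06, IER2 by 2.45 and JUNB by 1.56, while FOSB, with 4 UMIs in all germ-like cells, was not called. Pig IER2, with 10 UMIs in these sums, was lost without pig 2 or pig 3 (adjusted p = 0.095 and 0.09), JUNB without pig 3 (0.15) and EGR1 at a minimum of 500 UMIs (0.052), and cattle FOSB was lost without cattle 3 (0.056). The median over all genes in the germ-like contrast was 0.55 with TMM scaling and 1.40 by library size alone in cattle, and 0.37 and 0.59 in pig, and in the other cell types it lay between -0.68 and 0.20 with TMM and between -0.52 and 0.27 by library size. The called contrasts kept their direction under both scalings, and those of the germ-like cells lie further from 0 when read against these medians.

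Sertoli-like cells, the somatic cells that enclose the germ cells, were higher for most of the group in cattle. Here 7 of 8 genes were higher and none lower, against 19.6% and 8.81% over all genes. FOSB had the largest log2 fold change of the 8, 4.07 (standard error 0.416, adjusted p = 2.3e-08), followed by ATF3 with 3.34, EGR1 with 2.95, IER2 with 2.86, JUNB with 2.53, FOS with 2.35 and JUN with 2.34. DUSP1 had 0.20 (adjusted p = 0.78). These 7 calls were kept in each of the 12 alternatives run. Cattle 1 was the highest animal in Sertoli-like cells for all 8 genes and had the lowest median depth, and the part of depth in this was not tested. Pig Sertoli-like cells were higher for 3 of 7 genes and lower for none, against 16.2% and 6.62%. These were ATF3 with a log2 fold change of 2.14 (adjusted p = 0.00013), EGR1 with 2.12 (adjusted p = 2.3e-05) and FOS with 1.30 (adjusted p = 0.0021). EGR1 and FOS were not called when cells were taken at a minimum of 500 UMIs (adjusted p = 0.15 and 0.21), and FOS was at 0.053 by library size alone. With the animal as a replicate block DUSP1 was called as well, at 0.69 (adjusted p = 0.0084).

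Macrophage-like cells were higher for DUSP1, ATF3 and FOS in both species. In cattle 6 of 8 genes were higher and none lower, against 10.1% and 3.93% over all genes. The log2 fold changes were 4.22 (adjusted p = 6.0e-07) for ATF3, 3.17 (adjusted p = 1.4e-09) for DUSP1, 2.62 (adjusted p = 6.0e-07) for FOS, 1.96 (adjusted p = 0.012) for FOSB, 1.58 (adjusted p = 6.0e-05) for JUN and 1.52 (adjusted p = 0.0016) for JUNB. EGR1 was at -0.19 (adjusted p = 0.99). Without cattle 3, which held 81 of the 90 ATF3 UMIs of these cells, ATF3, FOSB and JUNB were not called (adjusted p = 0.084, 0.21 and 0.098), nor was JUNB without cattle 2. IER2, at 0.61 (adjusted p = 0.35), was called with the replicate block (0.77, adjusted p = 0.00037). In pig 3 of 7 genes were higher and none lower, against 12% and 4.91%, with 2.58 (adjusted p = 7.7e-08) for DUSP1, 1.32 (adjusted p = 0.03) for ATF3 and 0.91 (adjusted p = 0.046) for FOS. The DUSP1 call was kept in each alternative, whereas the FOS call was lost when any 1 of the 3 pigs was left out, the ATF3 call without pig 1 or pig 3, and both by library size alone, with DESeq2, at a minimum of 500 UMIs and with doublets kept. EGR1, at -1.0 (adjusted p = 0.12), was called lower with the block (-1.25, adjusted p = 1.7e-05). The pig sums mix several clusters, described below. Of the 472 macrophage-like cells of pig 3, 248 lay in a C1Q cluster with ATF3 at 257 CPM. Clusters of 82 and 142 cells, whose leading genes were not all particular to macrophages, held 26.9 and 28.3 CPM.

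**Figure D3:**
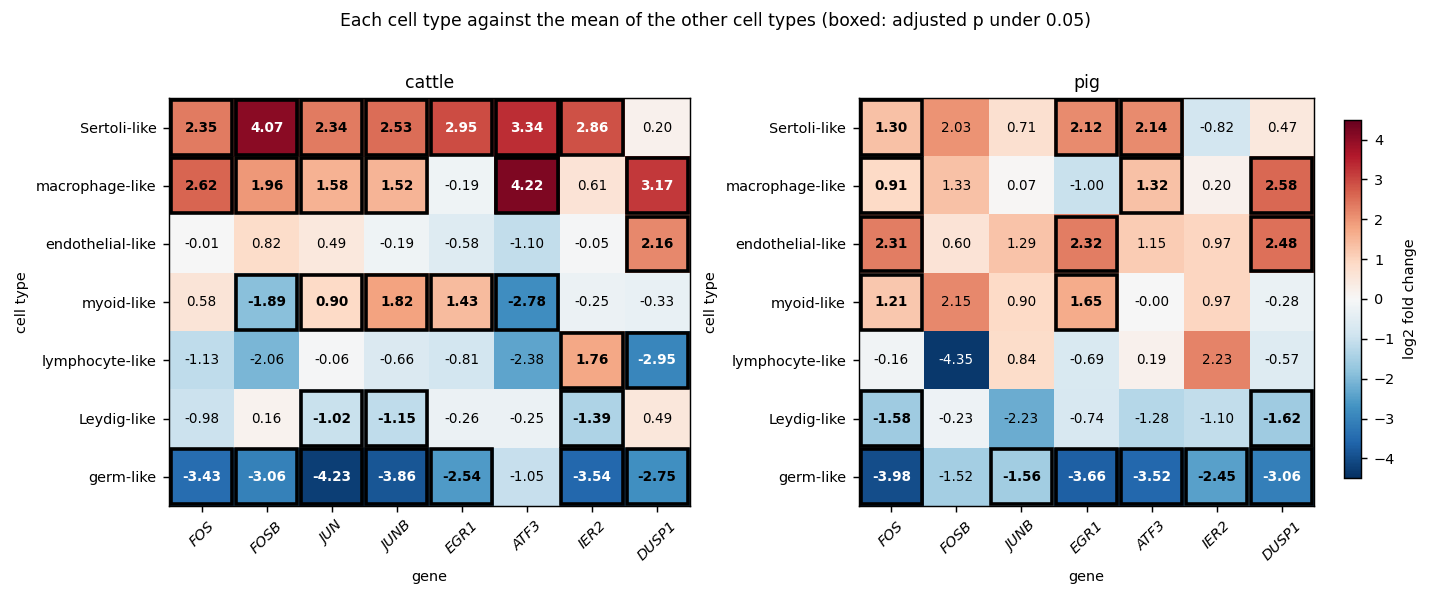
Log2 fold change of each gene (x axis) in each cell type (y axis) against the mean of the other cell types of that species, in color from blue (lower) to red (higher), with the value printed and a box where the adjusted p was under 0.05. Boxes fill the Sertoli-like and germ-like rows of cattle except for 1 gene each, and in pig the germ-like row except for FOSB.

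Endothelial-like cells, which line the vessels, were higher for DUSP1 in both species. In cattle only DUSP1 was called, higher at 2.16 (adjusted p = 9.5e-05), or 1 of 8 genes where 4.67% of all genes were higher and 2.13% lower. In pig 3 of 7 genes were higher, DUSP1 at 2.48 (adjusted p = 1.0e-06), EGR1 at 2.32 (adjusted p = 2.5e-05) and FOS at 2.31 (adjusted p = 4.1e-06), where 12.6% of all genes were higher and 3.82% lower. With the replicate block JUN was called in cattle (0.59, adjusted p = 0.021), and ATF3 (1.29, adjusted p = 1.7e-06) and JUNB (1.38, adjusted p = 0.024) in pig. The cattle contrast rests on 24, 64 and 47 cells, and EGR1 was not called in pig at a minimum of 500 UMIs (adjusted p = 0.15).

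Myoid-like cells, the contractile cells around the tubules together with other stroma, showed both directions in cattle. JUNB (1.82, adjusted p = 8.6e-05), EGR1 (1.43, adjusted p = 0.00034) and JUN (0.90, adjusted p = 0.018) were higher, and ATF3 (-2.78, adjusted p = 0.03) and FOSB (-1.89, adjusted p = 0.027) lower, so that 3 of 8 genes were higher and 2 lower, against 15.6% and 4.44% over all genes. The calls of ATF3 and JUN were lost without cattle 2, those of ATF3 and FOSB with sums of at least 50 cells, JUN with DESeq2 and FOSB at a minimum of 500 UMIs. All 3 were lost without cattle 3 (adjusted p = 0.16 for JUN and 0.19 for FOSB), and FOS (0.58, adjusted p = 0.32) was called higher with the replicate block (0.55, adjusted p = 0.00069). In pig EGR1 (1.65, adjusted p = 0.0044) and FOS (1.21, adjusted p = 0.027) were higher, 2 of 7 genes with none lower, against 8.47% and 0.764%. At a minimum of 500 UMIs neither was called (adjusted p = 0.29 for EGR1 and 0.28 for FOS). The FOS call was also lost without pig 1, which has no myoid-like sum of its own (adjusted p = 0.08), with DESeq2 (0.075), with doublets kept (0.054) and at resolution 2 (0.15).

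Leydig-like cells, the androgen-producing cells, were lower for some of the genes in both species. In the fit without the block, lymphocyte-like cells had 1 call each way in cattle, near the shares over all genes, and none in pig. With the block more genes were lower in the cattle cells, as given below. In cattle lymphocyte-like cells IER2 was higher at 1.76 (adjusted p = 0.00013) and DUSP1 lower at -2.95 (adjusted p = 4.5e-05), 1 of 8 genes each way, against 11.4% higher and 7.15% lower over all genes. With the replicate block ATF3, EGR1, FOS, FOSB and JUNB were also lower there, FOS at -1.16 (adjusted p = 1.6e-09) against -1.13 (adjusted p = 0.072) without it. The block raised the genes called in this contrast, both directions together, from 2636 to 4077 of 14184. In pig none of 7 genes was called in lymphocyte-like cells, against 3.97% and 0.501%, with sums of 22 and 106 cells in pig 2 and 3. DUSP1 there was -0.57 (adjusted p = 0.65), and with markers set against all other cells, where a cluster of 153 cells passed from the macrophage-like to the lymphocyte-like name, it turned to 1.49 (adjusted p = 0.0066). Cattle Leydig-like cells were lower for 3 of 8 genes and higher for none, against 6.03% and 12.1%, with IER2 at -1.39 (adjusted p = 0.015), JUNB at -1.15 (adjusted p = 0.047) and JUN at -1.02 (adjusted p = 0.026). All 3 were lost without cattle 2 or without cattle 3. With the block FOS was lower (-1.09, adjusted p = 8.9e-09) and DUSP1 higher (0.53, adjusted p = 0.016). Pig Leydig-like cells were lower for 2 of 7 genes and higher for none, against 4.72% and 7.46%, with DUSP1 at -1.62 (adjusted p = 0.0065) and FOS at -1.58 (adjusted p = 0.0052). With the block ATF3 (-1.12, adjusted p = 0.0014) and EGR1 (-0.91, adjusted p = 0.0026) were called lower as well. Without pig 2 the DUSP1 call was lost (adjusted p = 0.054), and the FOS call was lost without pig 1 (0.069) and at a minimum of 500 UMIs (0.3).

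Cells of 1 type were not uniform. Cattle macrophage-like cells fell into a cluster led by complement C1Q genes and a smaller one led by the MHC class II genes and CD74. FOS was 1466, 1843 and 2180.2 CPM in the first in cattle 1, 2 and 3 and 306, 189.5 and 340.2 in the second, and DUSP1 was 256, 395 and 699 against 76.4, 15 and 115. Both genes were higher in the first cluster in all 3 animals. The second cluster held only 22, 96 and 31 cells in cattle 1, 2 and 3, and the first 67, 168 and 168. Its low DUSP1 values therefore rest on few cells. Both clusters were named by the same markers, and whether they are 1 cell type was not tested. Another cluster led by C1Q genes, left unnamed because its markers were mainly those of myoid cells and its leading genes were not (80 cells in cattle 2 and 59 in cattle 3), was lower than the first, with FOS at 349 and 370.2 CPM and DUSP1 at 68.2 and 51.8. The pig clusters named macrophage-like split differently. In pig 3 FOS was 1371 CPM in the C1Q cluster, 1801 in a class II cluster that also led with MS4A2, a mast cell and basophil receptor subunit, and 609 in a cluster led by VPREB1 and IRF8, genes not particular to macrophages, whereas DUSP1 was 901, 356 and 939 CPM. Within pig 1 the Sertoli-like clusters differed in EGR1, with 837 CPM in the largest (826 cells) and 3833 in another (221 cells), at FOS levels of 1431 and 1559.8. Cattle 3 held 2 large myoid-like clusters with FOS at 715 and 256 CPM, the first led by PENK, DCN and TCF21 and the second by the contractile genes TPM2, TAGLN and ACTA2. The clusters were defined from the same cells, without these 8 genes among the genes clustered on, and the values are given as a description.

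Cells in which several of the genes had a UMI were counted next. Because deeper cells show more genes, each cell was thinned to 500 UMIs at random, which left out 322 of 17482 cattle cells, all in cattle 1, and no pig cell. At this depth at least 3 of the 8 genes were present in 8.94%, 4.69% and 6.75% of the cells of cattle 1, 2 and 3 (6.79% ± 2.12, SD, n = 3), and at least 3 of the 7 listed genes in 1.80%, 10.8% and 2.82% of the cells of pig 1, 2 and 3. Without thinning the shares were 17.0%, 24.8% and 45% and 5.82%, 57.6% and 35.4%. Such cells made up 38.5%, 11.5% and 13.5% of the Sertoli-like cells of cattle 1, 2 and 3 and 11.7%, 6.44% and 22.1% of the macrophage-like cells. Leydig-like cells stood at 1.6%, 0.432% and 0%, and in germ-like cells 0 of 83, 218 and 218 cells held 3 of the genes, which allows shares of up to 3.61%, 1.38% and 1.38% of cells with such UMIs at this depth. Without thinning the germ-like shares were 8.43%, 6.88% and 33.0% and the Sertoli-like shares 64.5%, 51.3% and 54.7%. After thinning, such cells made up 17.5% and 10.5% of the endothelial-like cells of pig 2 and 3. In pig 1, 2 and 3 they made up 4.28%, 12.4% and 6.64% of the Sertoli-like cells and 0%, 0.441% and 0% of the germ-like cells. Germ-like cells, the deepest cells of each species by UMIs, thus had the lowest or joint lowest share in each animal once thinned. If the genes were present independently of each other within a cell type, the share of each gene would give 33.4%, 5.91% and 4.92% in the thinned Sertoli-like cells of cattle 1, 2 and 3 and 8.44%, 4.28% and 17.3% in macrophage-like cells, all below the shares found. The pig Sertoli-like shares were also above the values from independence, which were 2.39%, 7.51% and 3.65% in pig 1, 2 and 3. So were the endothelial-like shares of pig 2 and 3 (13.3% and 7.62% from independence). Not all shares of either species were above it. In the 228 myoid-like cells of pig 3, 2.19% was found and 2.43% came from independence. In the macrophage-like cells of pig 1, 2 and 3, 0.917%, 7.34% and 1.27% were found against 1.28%, 6.0% and 1.14%. The endothelial-like cells of cattle 1 held 0% against 0.212%, and the lymphocyte-like cells of cattle 2 0% against 0.0542%. FOS alone was found in 46.4%, 25.1% and 21.4% of the thinned Sertoli-like cells of cattle 1, 2 and 3 and in 3.61%, 1.38% and 0.917% of the germ-like cells.

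**Figure D4:**
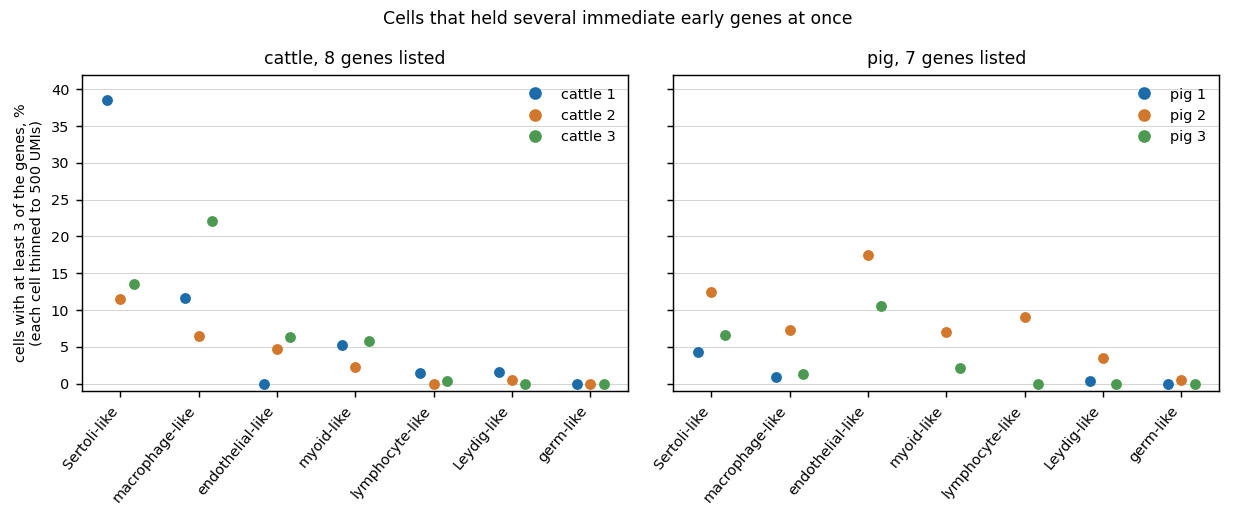
Share of cells, in % on the y axis, in which at least 3 of the genes had a UMI after thinning to 500 UMIs, by cell type on the x axis and with 1 point per animal. Cattle 1 stands apart in Sertoli-like cells at 38.5%, pig 2 is the highest pig in each cell type, and germ-like cells are at or near 0.

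The cattle files also hold barcodes with few UMIs, which are mostly droplets without a cell and carry the free RNA of the suspension. Barcodes of 1 to 50 UMIs held FOS at 335, 344 and 413 CPM in cattle 1, 2 and 3, against 587, 410.2 and 457 in all cells kept. JUN was 180.3, 247 and 391 CPM in these barcodes against 572, 488 and 561 in cells, EGR1 77.8, 94.4 and 128 against 169, 139 and 141 and JUNB 349, 369 and 438 against 561, 418 and 414. FOS, JUN and EGR1 were higher in cells in 3 of 3 animals, and IER2 in 2 of 3 (255, 154 and 119 against 286, 136 and 123). No gene of the group, and no gene of 14269, passed the edgeR test without a block (0% higher, 0% lower), although 951 genes had an unadjusted p under 0.05 and DESeq2 called 22. With cells and droplets of an animal taken as a pair by the replicate block, JUN (0.95, adjusted p = 1.2e-10), EGR1 (0.51, adjusted p = 0.0069) and FOSB (0.48, adjusted p = 0.038) were higher in cells, among 1544 genes called. FOS in the free RNA of each animal lay above its level in the germ-like cells of that animal (153, 29.8 and 36.2 CPM), and how much of the germ-like level came from free RNA was not tested. The pig files list no barcode below 500 UMIs and gave no such comparison.

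**Figure D5:**
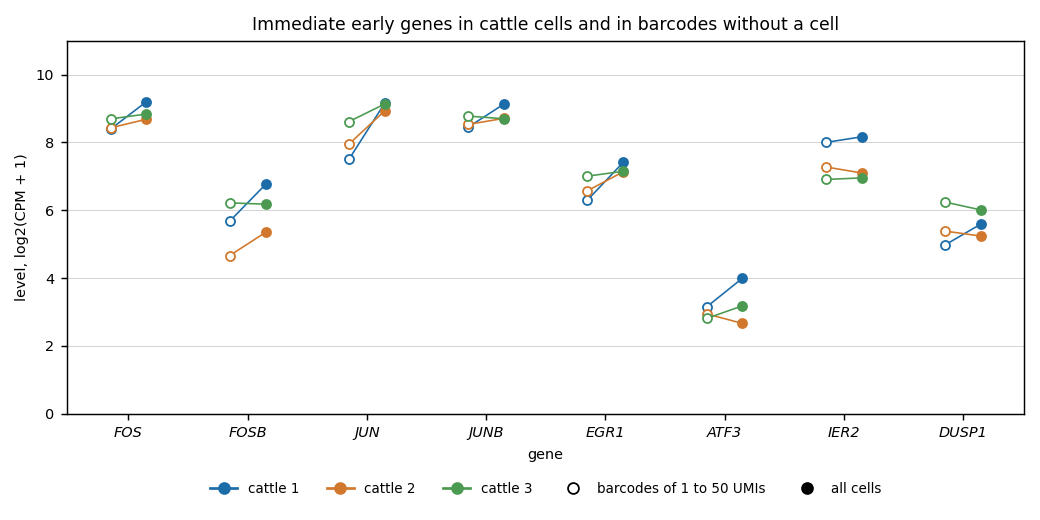
Level of each gene in cattle, as log2(CPM + 1) on the y axis, in barcodes of 1 to 50 UMIs (open circles) and in all cells kept (filled circles), with a line joining the values of 1 animal. The lines of FOS, JUN and EGR1 rise from open to filled circles in 3 of 3 animals, and those of IER2 and DUSP1 stay nearly flat or differ in direction.

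Between species the genes were called in both directions, with counts not far above the shares over all genes. In sums over all cells, pig against cattle, ATF3 (3.32, adjusted p = 0.0032), EGR1 (1.37, adjusted p = 0.015) and DUSP1 (1.35, adjusted p = 0.024) were higher, and JUNB (-7.35, adjusted p = 4.3e-06), IER2 (-7.31, adjusted p = 7.7e-06) and FOSB (-6.48, adjusted p = 0.00016) lower, so that 3 of 7 genes were called each way, where 30.5% of 12769 genes were higher and 26.6% lower. FOS, at 541, 2703 and 1011 CPM in pig 1, 2 and 3 and 587, 410.2 and 457 in cattle 1, 2 and 3, was not called (0.97, adjusted p = 0.13), its groups overlapping. It was called higher in pig by library size alone (1.61, adjusted p = 0.021) and without pig 1 (1.36, adjusted p = 0.028), and was at 0.09 (adjusted p = 0.84) without pig 2. In Sertoli-like cells alone 3 of 7 genes were again called each way, where 32% of 10596 genes were higher and 30.9% lower, with log2 fold changes of 2.90 for ATF3, 1.41 for EGR1, 1.30 for DUSP1, -7.31 for FOSB, -7.61 for JUNB and -9.02 for IER2. These 6 calls were kept in each alternative. FOS, at 0.67 (adjusted p = 0.073) in these cells, was called higher in pig by library size alone, with DESeq2, without cattle 1 and without pig 1 (adjusted p = 0.004, 0.032, 0.015 and 0.039). The DUSP1 difference over all cells was lost without cattle 1, cattle 2, pig 2 or pig 3, and that of EGR1 without cattle 3 (adjusted p = 0.052). Counts of a gene in this assay depend on its annotated 3′ end, the species were counted on different annotations, the pig matrices alone name a software version in their headers, and all samples of a species share its breed and age, so that species, annotation and read processing cannot be told apart in these differences. The sums over all cells also carry the makeup of cell types, which differed between the species and among the pigs.

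Summed over the group, the genes took 0.234%, 0.167% and 0.184% of the UMIs of cattle 1, 2 and 3 (8 genes) and 0.117%, 0.421% and 0.159% of those of pig 1, 2 and 3 (7 genes). Over the 7 genes listed in both, the cattle share was 0.141% ± 0.0316 and the pig share 0.232% ± 0.165 (SD, n = 3 each). The difference of 0.0908 percentage points gave p = 0.7 in a two-sided exact permutation test over animals, in which 3 against 3 cannot give less than 0.1. The pig mean rests on pig 2, and without it the difference was -0.00346 percentage points. These shares also depend on the makeup of the cells. Germ-like cells made up 2.41%, 2.68% and 3.69% of the cells of cattle 1, 2 and 3. In pig 1, 2 and 3 they made up 20.4%, 5.96% and 31.3%. Sertoli-like cells made up 14.7%, 29.1% and 22.5% in cattle and 37.0%, 61.6% and 9.44% in pig. The part of makeup in the UMI shares was not tested.

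The cell type pattern itself was compared by the interaction of species and cell type. It passed for 6 of 7 genes, where 34.2% of 12754 genes did, with adjusted p-values of 0.00066 for JUNB, 0.0015 for IER2, 0.0033 for ATF3, 0.0047 for FOS, 0.0064 for DUSP1 and 0.013 for EGR1. FOSB was at 0.14, or 6.3e-05 with the replicate block. For FOS the endothelial-like mean was 318 ± 199 CPM in cattle (SD, n = 3) and 4462 ± 1134 in pig (SD, n = 2), against Sertoli-like means of 1025 ± 479.8 and 2406 ± 794 (SD, n = 3 each). The count fell to 1 gene without pig 2 or without pig 3, and to 3 without cattle 3 or with sums of at least 50 cells. A cell type entered this test only with at least 2 sums in each species. Without pig 2 or pig 3 the endothelial-like, myoid-like and lymphocyte-like cells therefore left it. With sums of at least 50 cells the endothelial-like and lymphocyte-like cells left it, so these counts cover fewer cell types. The counts over all genes in the same settings are not given beside them.

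Further immediate early genes, in a list that also holds NR4A, KLF, EGR and DUSP members, were read in the same contrasts. Of these 25 passed the filter on low counts in cattle and 30 in pig. Germ-like cells were lower for 13 of 25 and higher for 1 in cattle and lower for 21 of 30 and higher for none in pig, against 17.4% lower and 36.2% higher over all genes in cattle and 17.5% and 32.7% in pig. Their median log2 fold changes were -1.99 and -2.62 where all genes had 0.55 and 0.37. Macrophage-like cells were higher for 16 of 25 and lower for none in cattle and higher for 14 of 30 and lower for 2 in pig, where 10.1% and 12% of all genes were higher and 3.93% and 4.91% lower. Endothelial-like cells were higher for 4 of 25 in cattle and 17 of 30 in pig and lower for none, where 4.67% and 12.6% of all genes were higher. In Sertoli-like cells, where 7 of the 8 genes above were higher in cattle, 8 of these 25 were higher and 7 lower in cattle, and in pig the counts were 8 and 3 of 30, where 19.6% of all cattle genes and 16.2% of all pig genes were higher and 8.81% and 6.62% lower. The list was drawn up with results of these data known, and its counts are a description. By the largest F the cattle list was led by DUSP6, a phosphatase of ERK kinases, RHOB, a small GTPase, and NFKBIA, the inhibitor of NF-kB. DUSP6 averaged 276 CPM (range 173 to 389.8) in macrophage-like and 252 CPM (range 177 to 325) in endothelial-like cells but 10.1 CPM (range 4.86 to 16.7) in Sertoli-like cells. NFKBIA averaged 616 CPM (range 371 to 848) in macrophage-like cells and 44.5 CPM (range 34.5 to 56.1) in Sertoli-like cells. RHOB averaged 410.2 CPM (range 322 to 539.7) in macrophage-like and 20.3 CPM (range 18.3 to 23.9) in germ-like cells. The pig list was led by KLF2, a factor known from endothelium, BTG2, an antiproliferative factor, and ZFP36, which promotes decay of cytokine mRNAs. In endothelial-like cells KLF2 averaged 544 CPM (range 489 to 599), BTG2 2164 CPM (range 1820.5 to 2507) and ZFP36 1742 CPM (range 1729.5 to 1755), and in germ-like cells 5.02 CPM (range 2.45 to 6.82), 19.7 CPM (range 8.80 to 36.8) and 113 CPM (range 108 to 122).

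Genes of the signalling steps upstream formed a second list. Of 13 tested in cattle 7 differed among cell types, and of 14 in pig 10 did, where 72.7% and 63.2% of all genes did. In germ-like cells 1 of 13 was higher and 3 lower in cattle, against 36.2% and 17.4% of all genes, and none of 14 higher and 7 lower in pig, against 32.7% and 17.5%. MAPK3, which encodes the kinase ERK1, was the 1 higher in cattle, at 230.2 CPM (range 222 to 238) in germ-like against 31.0 CPM (range 26.9 to 37.9) in Sertoli-like cells, while in pig it was 18.7 CPM (range 14.2 to 25.5) against 40.4 CPM (range 32.1 to 44.7). MAP2K1, the kinase above it, averaged 146 CPM (range 99.1 to 203) in cattle macrophage-like and 20.1 CPM (range 14.1 to 25.8) in Sertoli-like cells. RPS6KA1, a kinase activated by ERK, was highest in lymphocyte-like cells of cattle, at 68.7 CPM (range 59.1 to 79.6), and in macrophage-like cells of pig, at 49.1 CPM (range 47.1 to 50.6). ELK3, an ETS factor that binds with SRF at serum response elements, averaged 364 CPM (range 303 to 425) in pig endothelial-like cells and 5.25 CPM (range 3.95 to 7.33) in Sertoli-like cells.

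Heat shock genes, induced by protein damage through a different factor, formed the third list. Of 10 tested in cattle 4 were higher and 1 lower in germ-like cells, and of 11 in pig 4 were higher and 2 lower, near the shares of all genes there (36.2% higher and 17.4% lower in cattle, 32.7% and 17.5% in pig). The median log2 fold changes of the list were 0.58 and 0.31, where all genes had 0.55 and 0.37. HSPH1, a chaperone of the HSP110 family, averaged 148 CPM (range 95.5 to 179.5) in cattle germ-like cells and 10.9 CPM (range 7.58 to 13.9) in Sertoli-like cells, and DNAJB1, a cochaperone of HSP70, 352 CPM (range 286 to 396) and 101 CPM (range 60.8 to 168). HSPE1, the mitochondrial cochaperonin, was highest in Leydig-like cells in both species, at 702 CPM (range 571 to 779) and 1559 CPM (range 1411 to 1759). HSPB1, a small heat shock protein, averaged 1154 CPM (range 1009 to 1384) in pig Sertoli-like and 183 CPM (range 88.4 to 289) in germ-like cells. DNAJA1 averaged 1189.8 CPM (range 857 to 1701) in pig Leydig-like cells and 211 CPM (range 180.3 to 236) in macrophage-like cells.

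The genes whose levels were most like the mean of the group were named from Pearson's r of log2 CPM over all sums of a species, as a description, since sums of an animal share its library and depth. Over 21 cattle sums and 6413 genes the mean of the group was closest to BRK1 (r = 0.897), followed by PRDX1, FXYD6, ATP6V0C, CATSPERG, RHOB, CD40, RAMP1, RNASEK and CST3 (r = 0.842). Of these RHOB is in the list of further immediate early genes. Over 18 pig sums and 7343 genes it was closest to NDRG1 (r = 0.945), followed by ATP1B1, F2R, BTG2, NR4A1, SLC50A1, NFKBIZ, IFNGR1, ZFP36L2 and MCL1 (r = 0.911), of which BTG2, NR4A1, NFKBIZ and MCL1 are in that list. Within the group, r of each gene with the mean of the other genes ran from 0.496 for DUSP1 to 0.955 for FOS in cattle. In pig it ran from 0.327 for IER2 to 0.970 for FOS.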

How the data were processed

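Single-cell RNA from 3 cattle and 3 pig testes was captured in droplets with 10x v2 chemistry, and all 6 libraries were used. Per the submitters' processing notes the reads were processed with Cell Ranger 2.1.0 against ARS-UCD1.2 (cattle) or Sscrofa11.1 (pig), and the authors deposited raw UMI counts per gene and barcode, with no normalization. No column of another sample was present (0 columns not used), and the annotation release was not given in the sources used here. The headers of the pig matrices name a later software version than these notes, and those of the cattle matrices name none.

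Cells were called by the Cell Ranger 2 rule with 3000 expected cells, and barcodes under 200 genes were left out. The rule set a different cut in each library. It was 459, 972 and 2644 UMIs in cattle 1, 2 and 3 and 696, 2444 and 3457 in pig 1, 2 and 3. In pig 3 it called 2277 barcodes, where 8774 had at least 500 UMIs and 200 genes. The minimum of 500 UMIs, the same for all libraries, is the alternative to this cut. The highest Scrublet scores, 0.8% per 1000 cells, were removed as doublets (1021 in cattle and 249 in pig). Cells of each species were clustered with the Leiden algorithm (resolution 1, 2000 variable genes, 30 components, 15 neighbours; scanpy 1.11.5, igraph 0.11.9, Python 3.11.15), with the genes described here, the 3 gene lists and mitochondrial genes kept out of the variable genes. A cluster was named when at least 3 fixed markers of a cell type stood above the median cluster and its leading genes did not belong to another type. This naming rule was set after the clusters were seen, and of 8 cell types looked for none was named erythroid-like.

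Raw counts were summed per animal and cell type over at least 20 cells and tested with edgeR 4.0.16 in R 4.3.3 (quasi-likelihood F test, TMM, genes with at least 10 counts, Benjamini-Hochberg over all genes tested, 0.05). The log2 CPM values behind the correlations used a prior count of 2, and the fitted log2 fold changes kept the default of edgeR. The scripts were tested on simulated data. Sums of the same animal, which share a library, deviated together from the means of their cell types. The median correlation was 0.374 over 63 pairs in cattle (lowest 0.110) and 0.303 over 48 pairs in pig (lowest 0.135). Between animals it was -0.237 and -0.184, but deviations from a mean over so few animals are negatively related by construction, so these values are no reference. The animal was therefore used as a replicate block in an alternative fit. The other alternatives were DESeq2 1.42.0, scaling by library size, no filter on low counts, each animal left out, a minimum of 500 UMIs, doublets kept, resolution 2, markers set against all other cells, sums of at least 50 cells, and other thinning depths. Single values between species were compared by an exact permutation test over all splits of the animals. Poisson limits were computed with scipy 1.17.1.

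All 8 genes chosen by name are described. Of each gene list, the 3 with the largest F in a species are named, and the 10 genes most like the mean of the group. The genes and the lists were chosen with earlier results of these data known. The animal is the replicate throughout, and counting intervals cover counting error only.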

Additional observations from a re-analysis of the deposited data

Results flagged for a closer look

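For 6 of the 7 genes shared by both species the pattern over cell types differed between cattle and pig by the edgeR interaction test, at adjusted p-values of 0.00066 (JUNB), 0.0015 (IER2), 0.0033 (ATF3), 0.0047 (FOS), 0.0064 (DUSP1) and 0.013 (EGR1). Over all 12754 genes tested 34.2% passed the same test, and 1 of the 6 calls was kept in every alternative. For JUNB and IER2 the pig level was at most 22.4 and 11.2 CPM in any sum, and the cattle means ran from 36.5 to 832 CPM and from 23.7 to 505 CPM over the cell types. All pig cells together held 193 JUNB and 76 IER2 UMIs, so the pig side of both patterns rests on few UMIs. For DUSP1, lymphocyte-like cells averaged 7.04 ± 1.35 CPM in cattle (SD, n = 3) and 139 ± 9.44 CPM in pig (SD, n = 2). For EGR1, endothelial-like cells averaged 53.6 ± 29.6 CPM in cattle (SD, n = 3) and 1359.9 ± 50.1 CPM in pig (SD, n = 2), the third highest mean of the cattle cell types and the highest in pig. For ATF3, endothelial-like cells averaged 1.48 ± 2.57 CPM in cattle (SD, n = 3, on 1 UMI) and 161 ± 26.6 CPM in pig (SD, n = 2). Its macrophage-like means were 38.3 ± 39.5 CPM in cattle and 175 ± 27.1 CPM in pig (SD, n = 3 each). Over all cells ATF3 averaged 9.46 CPM in cattle and 135 CPM in pig. The 2 species were counted on different annotations, and the part of annotation in these differences cannot be told apart from that of species. Without pig 2 or without pig 3 the pattern differed for 1 gene, with endothelial-like, myoid-like and lymphocyte-like cells no longer in the test.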

How the results depend on the processing

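Of the 82 gene values that passed a test, 51 passed in the same direction in every alternative run for them: 29 of 39 among cell types of cattle, 11 of 25 in pig, 1 of 6 interactions, 6 of 6 between Sertoli-like cells of the species and 4 of 6 over all cells. Leaving out 1 animal moved the lower gene and cell type pairs of cattle to between 7 and 19 (13 with all animals), the genes whose pattern differed between species to between 1 and 6, and the difference in UMI share to between -0.00346 and 0.149 percentage points (0.0908 with all animals, an alternative chosen after seeing the data). Calls over all genes moved too. The cattle germ-like contrast called 7599 of 14184 genes with all animals, 4841 of 12561 without cattle 3 and 8457 of 14042 without cattle 1. The interaction counts and the pig counts of other settings are given here without such counts over all genes. At a minimum of 500 UMIs, 5 pairs were higher in pig in place of 11, and with sums of at least 50 cells the interaction passed for 3 genes in place of 6. The cells with at least 3 genes rose from 6.79% to 18.4% (thinned to 1000 UMIs) and 28.9% (not thinned) in cattle and from 5.14% to 12.1% and 33.0% in pig. Thinning to 1000 UMIs also left out more cells, keeping 1096 of 3444 in cattle 1 and 1184 of 3162 in pig 1. DUSP1 in pig lymphocyte-like cells turned from -0.57, not called, to 1.49 (adjusted p = 0.0066) with markers set against all other cells, where a cluster of 153 cells changed its name from macrophage-like to lymphocyte-like. Without pig 2 or without pig 3 the endothelial-like, myoid-like and lymphocyte-like cells were no longer in the interaction test. With sums of at least 50 cells the endothelial-like and lymphocyte-like cells were no longer in it. These interaction counts therefore cover fewer cell types. How much of their fall came from the missing cell types was not tested, nor was the cause of the other changes. The replicate block gained 20 calls and lost none, and the genes differing between cells and empty droplets went from 0 to 3 with this pairing. Over all cattle genes the block raised those differing among cell types from 10306 to 12065 of 14184. Depth limits the low genes most: pig FOSB, JUNB and IER2 and cattle ATF3 rest on few UMIs in most sums, and cattle endothelial-like and pig lymphocyte-like sums on few cells.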

Other observations

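Some clusters carried no cell type name and entered no contrast among cell types, though their cells are in the sums over all cells. In pig 2 a cluster of 236 cells in which UCHL1, ELAVL2 and DCN were among the leading genes held FOS at 1580.5 CPM, EGR1 at 1234 CPM and DUSP1 at 164 CPM. The germ-like cells of the same animal held 261, 84.8 and 38.8 CPM. Its largest myoid-like cluster held 3656, 1473 and 206 CPM and its largest Sertoli-like cluster 2813, 892 and 184 CPM. Which cells the unnamed cluster holds was not tested. In pig 1 a cluster of 180 cells led by CTSS, RGS1 and VPREB1 held FOS at 350.4 CPM and DUSP1 at 427 CPM. In cattle a cluster led by C1QC, C1QA and C1QB, with 80 cells in cattle 2 and 59 in cattle 3, held JUN at 455 and 526 CPM and JUNB at 379 and 518 CPM.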
